A study of Mus musculus with 16 samples.

Results

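Oxidative phosphorylation subunits are the proteins that build the 5 enzyme complexes of the mitochondrial inner membrane, and their genes were followed here in left ventricles of mice carrying a mutation of the splicing factor RBM20. Members were taken by symbol from the deposited gene table: the structural subunits named Nduf (followed by a, b, c, s or v and a number), Sdha to Sdhd, Uqcr, Cyc1, Cox4 to Cox8 and Atp5, and the mitochondrially encoded mt-Nd, mt-Co, mt-Atp and mt-Cytb genes, without pseudogenes marked -ps. This gave 103 of 56953 genes. Of these, 90 are encoded in the nucleus (38 of complex I, 4 of complex II, 9 of complex III, 21 of complex IV and 18 of complex V) and 13 in mitochondrial DNA (7 of complex I, 1 of complex III, 3 of complex IV and 2 of complex V). Ndufa4 and Ndufa4l2 were counted with complex IV. A total of 99 members passed the filter on low counts. The 4 that did not were Ndufa11b, Cox7b2, Cox8c and a second entry named Atp5o (ENSMUSG00000116933), which had no counts.

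The study crossed 2 genotypes with 2 viruses, with 4 mice per group and 1 library per mouse. Mice of the Bl6J strain, of both sexes, carried either the normal gene (WT) or P635L, an amino acid exchange in RBM20, on both alleles. All received AAV9, an adeno-associated virus that reaches the heart, at a dose of 1e12 viral genomes into the tail vein at the age of 4 weeks, and the ventricles were collected 12 weeks later, at 16 weeks. The vector carried a cDNA of Tnpo3, a carrier that brings proteins into the nucleus (groups WT Tnpo3 and P635L Tnpo3), or a control construct in which a CAG promoter drives the Cre recombinase iCre and the green fluorescent protein eGFP (groups WT Ctr and P635L Ctr), so that the control mice were injected too, with a vector encoding Cre. The promoter of the Tnpo3 vector is not given in the sources used here. Polyadenylated RNA of the whole left ventricle was sequenced, so fewer cells of a type and less RNA per cell cannot be told apart.

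Complex I (NADH dehydrogenase) and complex II (succinate dehydrogenase) pass electrons to ubiquinone, complex III (cytochrome bc1) passes them on to cytochrome c, complex IV (cytochrome c oxidase) hands them to oxygen, and complex V (ATP synthase) makes ATP from the proton gradient that complexes I, III and IV build. Complex II is encoded in the nucleus alone. The other complexes combine nuclear subunits with a small number made inside the mitochondrion from its own DNA, and the heart, which beats on mitochondrial ATP, holds very high levels of both kinds of mRNA. Heart and skeletal muscle also use their own isoforms of some complex IV subunits, among them Cox6a2, Cox7a1 and Cox8b.

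Library totals ran from 28493249 to 85922669 counts. Tnpo3 itself was at 231 to 507 CPM (counts scaled to library size) in WT Tnpo3 and 234 to 723 CPM in P635L Tnpo3, against 41.6 to 49.4 CPM in the control-virus groups. Nuclear members held 4.54% to 7.84% of a library's counts and the 13 mitochondrial mRNAs 4.82% to 10.5%. In 3 WT libraries (WT Ctr 2, WT Ctr 4 and WT Tnpo3 4) a single gene, ENSMUSG00000119584, took 20% to 22.7% of the counts, against at most 5.3% elsewhere. In 3 WT libraries (WT Ctr 4, WT Tnpo3 2 and WT Tnpo3 4) Xist exceeded the Y-linked genes, and in none of the 8 P635L libraries, so sex and genotype were not balanced. WT Ctr 4 and WT Tnpo3 4 also had the lowest nuclear subunit levels of their groups, and results that rest on these libraries are given with and without them.

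In P635L Ctr hearts nuclear subunit mRNAs had mostly lower values than in WT Ctr hearts, with a negative median in each of the 5 complexes, and 17 of them fell. None of the 7 abundant mitochondrial mRNAs was called. Of the 99 members tested, 18 fell and none rose (edgeR quasi-likelihood test, adjusted p under 0.05 over 18662 genes). That is 18.2% of the members, against 14.2% of all genes called in either direction, 7.14% called lower and 7.07% called higher. Of the 86 nuclear members tested, 84 had a log2 fold change below 0 and 17 fell, with a median of -0.33 against -0.05 over all genes. Of the 13 mitochondrial mRNAs, 10 had a value below 0 and 1, mt-Nd3, fell, with a median of -0.23 that was -0.03 without WT Ctr 2 and -0.46 without P635L Ctr 4. In 13 of the 99 members no P635L Ctr library reached the lowest WT Ctr library, and in none the reverse, against 9.43% of all genes without overlap in the lower direction and 9.71% in the higher.

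**Figure D1:**
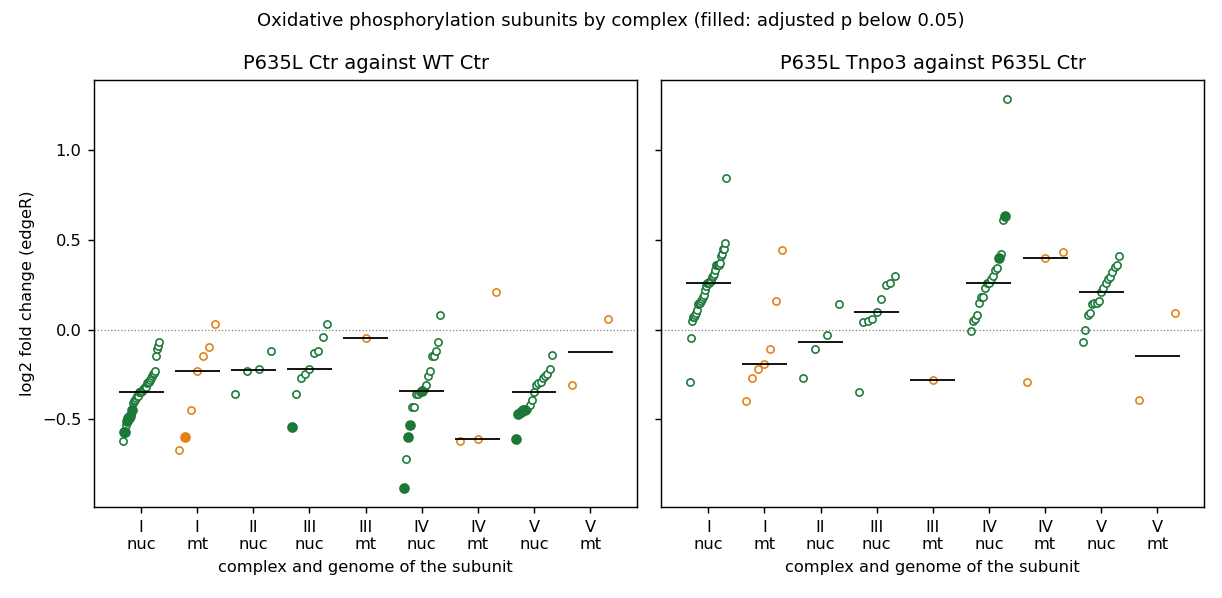
The log2 fold change (vertical axis) of each tested member, grouped by complex and by the genome that encodes it (nuc, nuclear; mt, mitochondrial), for P635L Ctr against WT Ctr and for P635L Tnpo3 against P635L Ctr. Filled points passed an edgeR adjusted p of 0.05, and black lines are medians. Nuclear medians lie between -0.35 and -0.22 in the first comparison and between -0.07 and 0.26 in the second.

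Cox7a1, the heart and skeletal muscle isoform of a small complex IV subunit, changed most. Its gene lies on chromosome 7, 29883569 to 29885503 on the forward strand (deposited coordinates, GRCm39 per the submitters' processing notes). Its normalised counts were 1080, 1263, 933 and 679 CPM in the WT Ctr libraries 1 to 4 and 482, 496, 622 and 545 CPM in P635L Ctr. The groups did not overlap. The log2 fold change was -0.88 (SE 0.17, edgeR adjusted p = 0.00163), and the call held under all 25 alternatives run, with adjusted p up to 0.00826. Cox8b, the muscle isoform of another small complex IV subunit, was at 953, 1066, 720 and 589 CPM in WT Ctr and 535, 553, 589 and 520 CPM in P635L Ctr. The highest mutant library met the lowest WT library, which was WT Ctr 4. Its log2 fold change was -0.60 (SE 0.16, edgeR adjusted p = 0.0195). Cox6a2, the third muscle isoform, was at 1453 to 2120 CPM in WT Ctr and 1175 to 1279 CPM in P635L Ctr, with a log2 fold change of -0.53 (edgeR adjusted p = 0.0158). The fourth complex IV call was Cox4i2, an isoform of Cox4 that is prominent in lung, at 18.4 to 23.2 CPM in WT Ctr and 16.1 to 18.9 CPM in P635L Ctr, or -0.34 on the log2 scale (edgeR adjusted p = 0.0431). The Cox4i2 call held under 11 of 25 alternatives, with adjusted p up to 0.226, and the Cox8b call under 20. Cox5a, another nuclear subunit of complex IV, had a log2 fold change of -0.35 (edgeR adjusted p = 0.115).

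Complex I contributed 7 nuclear falls among its 37 tested members, and all 37 values were below 0. Ndufb10, an accessory subunit of the membrane arm, was at 1070, 1135, 915 and 706 CPM in WT Ctr and 587, 619, 690 and 681 CPM in P635L Ctr. Every mutant library was below every WT library, and the log2 fold change was -0.57 (SE 0.15, edgeR adjusted p = 0.0142). Ndufs8, which carries iron-sulfur clusters of the peripheral arm, had a mean of 364 ± 74.8 CPM (SD, n = 4) in WT Ctr and 245 ± 20 in P635L Ctr, a log2 fold change of -0.57 (edgeR adjusted p = 0.0221). The others that fell were Ndufb7 (-0.51), Ndufb2 (-0.49), Ndufv3 (-0.49), Ndufs7 (-0.48) and Ndufb8 (-0.45). The large catalytic subunits Ndufv1 and Ndufs1 stood at different places in this order. Ndufv1, which binds NADH, had a log2 fold change of -0.35 (edgeR adjusted p = 0.0645) and groups that did not overlap. Ndufs1, which holds further iron-sulfur clusters, was at 365, 413, 397 and 341 CPM in WT Ctr and 301, 329, 402 and 389 CPM in P635L Ctr. Of its P635L Ctr libraries 2 lay below the WT Ctr range and 2 inside it, and its log2 fold change was -0.09 (SE 0.17).

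None of the 4 subunits of complex II was called by edgeR with all libraries. Sdhb, the iron-sulfur subunit, had a log2 fold change of -0.36 (edgeR adjusted p = 0.12) and an adjusted p of 0.0487 in the authors' deposited table, and Sdha, the flavoprotein that oxidises succinate, had -0.12 (SE 0.17) with 1082 to 1307 CPM in WT Ctr and 926 to 1306 CPM in P635L Ctr. In complex III edgeR called Uqcrc1, a core protein of the matrix side, and none of the other 8 members. It was at 2176, 2136, 2166 and 1627 CPM in WT Ctr and 1294, 1285, 1583 and 1429 CPM in P635L Ctr, without overlap, and its log2 fold change was -0.54 (SE 0.15, edgeR adjusted p = 0.0189). Its partner core protein Uqcrc2 had -0.04 (SE 0.20). Uqcrfs1, the Rieske iron-sulfur protein, had -0.22, and Cyc1, cytochrome c1, had -0.36 (edgeR adjusted p = 0.117), with an adjusted p of 0.0387 in the authors' deposited table.

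Complex V contributed 5 falls among 17 tested members, and all 17 values were below 0. Atp5g1 encodes the membrane c subunit that forms the rotor ring, which is also made from Atp5g2 and Atp5g3. Atp5g1 was at 2036, 2240, 1641 and 1267 CPM in WT Ctr and 1068, 1144, 1251 and 1246 CPM in P635L Ctr. The WT Ctr 4 library was just above the highest mutant libraries, and the log2 fold change was -0.61 (SE 0.18, edgeR adjusted p = 0.0264). Atp5g3 fell as well (-0.47), and Atp5g2 had a value of -0.42 that missed the threshold (edgeR adjusted p = 0.0695). The other falls were Atp5d (-0.46), in the central stalk, and Atp5h (-0.45) and Atp5o (-0.45), in the peripheral stalk. The catalytic subunits Atp5a1 (-0.29) and Atp5b (-0.25) were not called. The highest nuclear value was that of Cox6c (0.08), a small subunit of complex IV. The Spearman correlation across the 86 nuclear members between the log2 fold change and gene length was 0.039, and with mean level -0.0202, given as a description of genes that share libraries.

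The number of members called depended on the libraries of both genotypes. Leaving out 1 library at a time, 1 member was called without WT Ctr 2, 4 without WT Ctr 1, 5 and 6 without P635L Ctr 1 and 2, 10 each without P635L Ctr 3 and 4, 11 each without P635L Tnpo3 1 and 2, 31 without WT Tnpo3 4 and 43 without WT Ctr 4, against 9.48% to 16.5% of all genes. With no filter on low counts 9 members were called, against 6.11%, and DESeq2 called 27, against 18.2%. Without the 3 libraries rich in ENSMUSG00000119584, 42 members fell and none rose, against 11.9% of all genes called. Without the 3 libraries with Xist above the Y-linked genes, 62 fell and none rose, against 15.5%. The nuclear median stayed between -0.45 and -0.22 over all 25 alternatives. In the authors' deposited table of DESeq2 results for this pair, 25 of 100 members listed had an adjusted p under 0.05 and all 25 were lower in P635L Ctr, against 13.4% of all genes listed, and 17 of them were among the 18 called here.

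Markers of cell types moved with this comparison. The 9 cardiomyocyte markers summed to 79093 to 96639 CPM in WT Ctr and 56844 to 60676 CPM in P635L Ctr. All 9 had values below 0, with a median of -0.50 against -0.33 for the nuclear subunits, and 4 fell. The 7 fibroblast markers summed to 987 to 1633 CPM in WT Ctr and 1564 to 2368 CPM in P635L Ctr, and 6 of the 7 rose. All 5 macrophage markers had values below 0 (median -0.62) and 1 fell, 1 of 6 lymphocyte markers fell, and of 3 skeletal muscle markers tested 1 fell and 1 rose. The skeletal muscle marker that fell was Ckm, which is read again below among carriers and partners, so this is 1 result and not 2. Mitochondrial rRNA held 1.64% to 1.96% of the counts in WT Ctr and 0.889% to 1.36% in P635L Ctr. The part of these in the subunit values was not tested. The tissue label fitted the markers: the 3 atrial markers summed to at most 10.1 CPM in any library.

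The 13 mitochondrial mRNAs fell into 2 separate ranges of level. Reads of 7 of them, mt-Nd1, mt-Nd2, mt-Nd4, mt-Nd5, mt-Nd6, mt-Co1 and mt-Cytb, gave 1642 to 49239 CPM in every library, and per length of transcript mt-Co1 was the most abundant member of all, at 18600 CPM per kilobase in WT Ctr. The other 6 (mt-Co2, mt-Co3, mt-Atp6, mt-Atp8, mt-Nd3 and mt-Nd4l) stayed between 0.616 and 93.3 CPM, although the mitochondrial genome is transcribed as long precursors that hold all of them. The line between the ranges, 100 CPM, was drawn after the values were seen. In a search of GENCODE M21 transcripts, 5 of those 6 had an annotated copy on chromosome 1 that matched at least 99% of the transcript at 99.7% to 100% identity: Gm28661 for mt-Co2, Gm10925 for mt-Atp6, Gm28437 for mt-Co3, Gm28438 for mt-Nd3 and Gm10222 for mt-Nd4l. mt-Atp8 had no such match among annotated transcripts, the best being 81.4% identity over 81.9% of its length. Its gene starts between mt-Co2 and mt-Atp6, whose copies lie side by side on chromosome 1. They span 24653966 to 24654646 and 24653055 to 24653732, and the genome sequence between them was not searched. Among the 7 abundant mRNAs the closest copies were those of mt-Nd4, with 100% identity over 63.6% of the transcript, and mt-Co1, with 97.6% identity over its whole length. How reads that fit several places were counted is not given in the sources used here. The counts of the 6 low mRNAs and of mt-Nd4 are therefore uncertain, and the part of copies in their level was not tested.

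**Figure D2:**
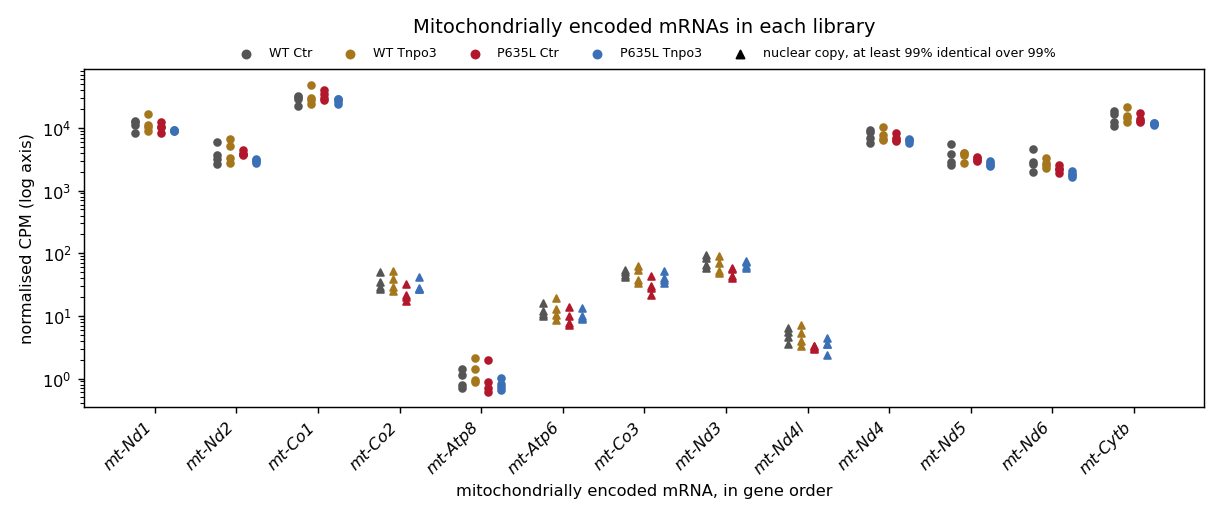
Normalised CPM (log axis) of each mitochondrially encoded mRNA in the 16 libraries, in the order of the genes on the mitochondrial genome, coloured by group. Triangles mark mRNAs with an annotated nuclear copy of at least 99% identity over at least 99% of the transcript. The 7 abundant mRNAs lie between 1642 and 49239 CPM and the other 6 between 0.616 and 93.3 CPM.

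The start of mt-Nd3 and of its copy is shown because it holds the only mismatch between them, T3C (position 3 from the 5′ end of the transcript, mitochondrial base first, in capitals), and the rest of this stretch is the same. The stretch of mt-Co1, bases 30 to 78 of the transcript, holds C54A and A60G and shows how a copy of 97.6% identity differs. All 4 sequences are from GENCODE M21 transcripts.
mt-Nd3: atTaacctgtacactgttatcttcatt
Gm28438: atCaacctgtacactgttatcttcatt
mt-Co1: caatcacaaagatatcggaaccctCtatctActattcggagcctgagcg
Gm13340: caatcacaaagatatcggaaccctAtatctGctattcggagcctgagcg

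With the mutation, the 2 ranges of mitochondrial mRNAs had different values. Over the 7 abundant mRNAs the median log2 fold change of P635L Ctr against WT Ctr was -0.10, with none called and values from -0.45 (mt-Nd6) to 0.21 (mt-Co1). mt-Co1, the catalytic core of complex IV, was at 22344 to 32418 CPM in WT Ctr and 28011 to 39824 CPM in P635L Ctr. mt-Nd1, of the membrane arm of complex I, was at 8319 to 12926 CPM in WT Ctr and 8470 to 12637 CPM in P635L Ctr, or -0.10 as the log2 fold change (SE 0.18). mt-Cytb, the central subunit of complex III, had -0.05 (SE 0.18). In each of these 3 the groups overlapped. Over the 6 low mRNAs the median was -0.61. mt-Nd3 was at 93.3, 85, 65.5 and 58.4 CPM in WT Ctr and 44, 55.2, 41 and 58.7 CPM in P635L Ctr, with WT Ctr 4 inside the mutant range, and its log2 fold change of -0.60 passed the test (SE 0.19, edgeR adjusted p = 0.0442) but held under only 11 of 25 alternatives. mt-Co3 (-0.62), mt-Co2 (-0.61) and mt-Nd4l (-0.67) did not pass with edgeR, and mt-Atp6 (-0.31) and mt-Atp8 (0.06) were further from doing so. DESeq2 called mt-Co3 and mt-Nd4l, and the authors' deposited table gives them adjusted p of 0.0165 and 0.016.

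With the Tnpo3 virus in P635L hearts, nuclear subunits had mostly positive values and the abundant mitochondrial mRNAs had only negative ones. Of the 99 members tested 2 rose, Cox7a1 and Cox4i2, and none fell, which is 2.02% of the members against 3.88% of all genes (1.63% higher and 2.25% lower), a share no larger than the background. Of the 86 nuclear members 78 had a log2 fold change above 0, with a median of 0.23 against 0.01 over all genes. In 45 of the 86 every P635L Tnpo3 library was above every P635L Ctr library, and in none below, against 9.36% of all genes without overlap in the higher direction and 11% in the lower. All 7 abundant mitochondrial mRNAs had values below 0 (median -0.27, lowest -0.40 for mt-Nd2), and none passed the test. Of the 6 low mitochondrial mRNAs, whose counts are uncertain, 5 had values above 0 (median 0.28), and none passed. The 13 mitochondrial mRNAs thus did not share 1 direction. When only the 8 libraries of these 2 groups were fitted, 39 members were called against 15.9% of all genes. Of these, 38 were higher, among them mt-Nd3, and 1, mt-Nd2, was lower. The count was 24 without the libraries rich in ENSMUSG00000119584 (7.59% of all genes) and 24 without those with high Xist (6.6%), 6 with DESeq2 (7.44%), 5 with upper-quartile factors (4.11%), and 1 each with no filter (1.7%) and with the replicate number as a block (3.63%). Leaving out 1 library at a time, no member was called without WT Ctr 3 (3.48% of all genes), P635L Ctr 1 (2.06%), 2 (1.68%) or 4 (1.51%), or P635L Tnpo3 1 (2%), 2 (1.82%) or 3 (1.48%). The count was 1 without WT Tnpo3 3 (3.74%), P635L Ctr 3 (3.07%) or P635L Tnpo3 4 (3.09%), 4 without WT Tnpo3 4 (5.37%) and 5 without WT Ctr 4 (4.44%).

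Cox7a1 was at 482, 496, 622 and 545 CPM in P635L Ctr and 851, 853, 852 and 763 CPM in P635L Tnpo3, without overlap, and its log2 fold change was 0.63 (SE 0.17, edgeR adjusted p = 0.0443). Cox4i2 was at 16.7, 16.1, 16.9 and 18.9 CPM and then 22.4, 20.4, 24 and 23.5 CPM, or 0.40 as the log2 fold change (SE 0.11, edgeR adjusted p = 0.0448). Both values are close to the threshold, and the calls held under 16 and 14 of 25 alternatives. The complex I accessory subunits Ndufb7 (0.45, edgeR adjusted p = 0.0671), Ndufb8 (0.45, 0.0836) and Ndufb2 (0.42, 0.0847) came next among the abundant members. Ndufb7 was at 475 to 512 CPM in P635L Ctr and 637 to 712 CPM in P635L Tnpo3. Cox8b was at 520 to 589 CPM and 730 to 737 CPM (log2 fold change 0.42, edgeR adjusted p = 0.177). Cox6b2, a testis isoform of complex IV, had the highest value (1.28, edgeR adjusted p = 0.0918) at only 0.674 to 3.74 CPM in these groups.

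**Figure D3:**
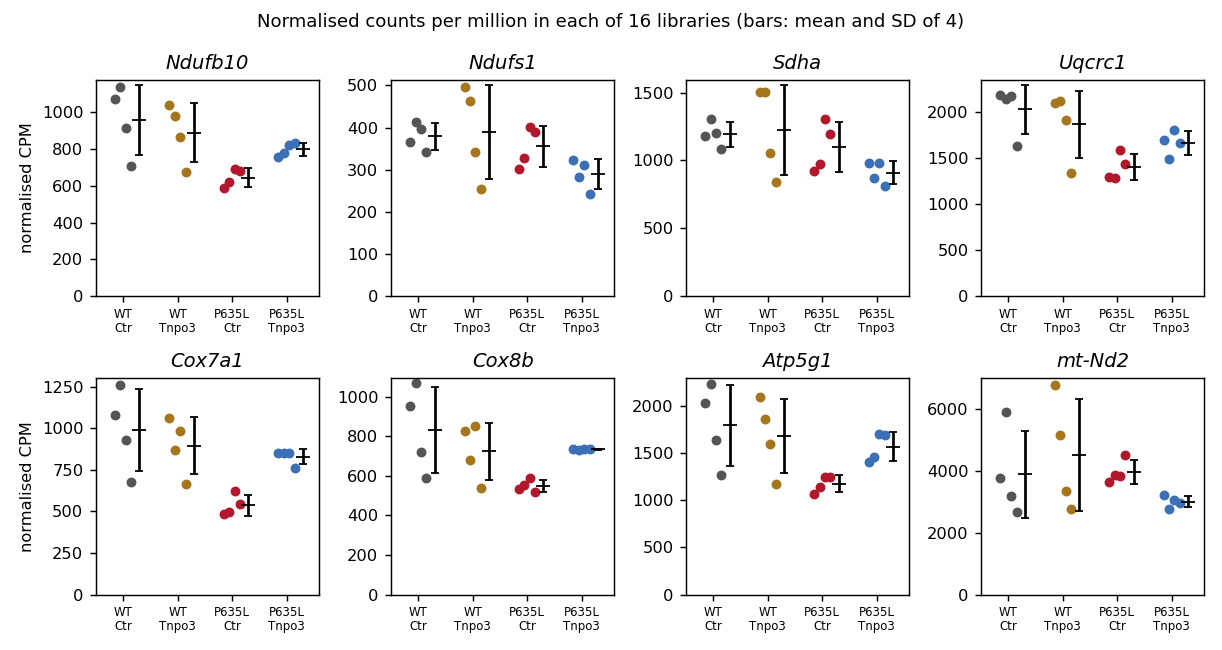
Normalised CPM of 8 members in each of the 16 libraries by group, with the mean and SD of 4 libraries beside the points. Cox7a1 lies at 482 to 622 CPM in P635L Ctr, below all other libraries, while Ndufs1, Sdha and mt-Nd2 have their lowest group mean in P635L Tnpo3.

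Some of the large subunits did not share the positive values. Ndufs1 was at 301 to 402 CPM in P635L Ctr and 243 to 322 CPM in P635L Tnpo3, or -0.29 as the log2 fold change (SE 0.17). Sdha was at 926 to 1306 CPM and 809 to 980 CPM, or -0.27 as the log2 fold change (SE 0.17). Uqcrc2 had -0.35 (SE 0.20), Atp5a1 -0.07 and Atp5b 0.00, and none of these 5 passed the test. The value of Ndufv1, in contrast, was slightly above 0, and it was not called. By complex, the nuclear medians were 0.26 for complexes I and IV, 0.21 for complex V, 0.10 for complex III and -0.07 for complex II. Over the nuclear members tested, the 28 with the shortest gene models (up to 1092 bases) had a median of 0.26 and the 28 with the longest (from 2147 bases) 0.14, and the Spearman correlation of the log2 fold change with length was -0.235, across genes that are not independent.

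Nuclear and mitochondrial mRNAs were set side by side within each library, as the mean over members of the log2 CPM after each gene was centred on its mean over the 16 libraries. The abundant mitochondrial mRNAs include mt-Nd4, whose count is uncertain because of its copy. They also include mt-Nd6, whose reads cannot be told from antisense RNA. Means without these were not made. The nuclear mean ran from -0.30 to -0.13 in P635L Ctr and from -0.04 to 0.07 in P635L Tnpo3, and the mean of the 7 abundant mitochondrial mRNAs from -0.18 to 0.24 and from -0.31 to -0.15. The nuclear minus the mitochondrial mean was therefore below 0 in all 4 P635L Ctr libraries (-0.40 to -0.12) and above 0 in all 4 P635L Tnpo3 libraries (0.19 to 0.33). The WT groups lay at -0.16 to 0.20 in WT Ctr and -0.31 to 0.15 in WT Tnpo3. Only WT Ctr 3, at 0.20, reached the P635L Tnpo3 range. The same order of the 2 mutant groups held in each complex with an abundant mitochondrial mRNA: the difference was -0.36 to -0.09 and then 0.20 to 0.42 for complex I, -0.40 to 0.05 and then 0.11 to 0.32 for complex III, and -0.61 to -0.21 and then 0.14 to 0.34 for complex IV. The mitochondrial side of these differences was 5 mRNAs in complex I, but only mt-Cytb in complex III and only mt-Co1 in complex IV. The other 2 mitochondrial mRNAs of complex IV, the low mt-Co2 and mt-Co3, were left out. Both had values above 0 with the virus in P635L hearts. No test was made on the library means, since they are scores over the members. The nuclear mean of WT Ctr, 0.28, 0.33, 0.10 and -0.25 in libraries 1 to 4, shows how far WT Ctr 4 stood from the other WT Ctr libraries, and WT Tnpo3 4 (-0.34) stood as far from the rest of its own group.

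**Figure D4:**
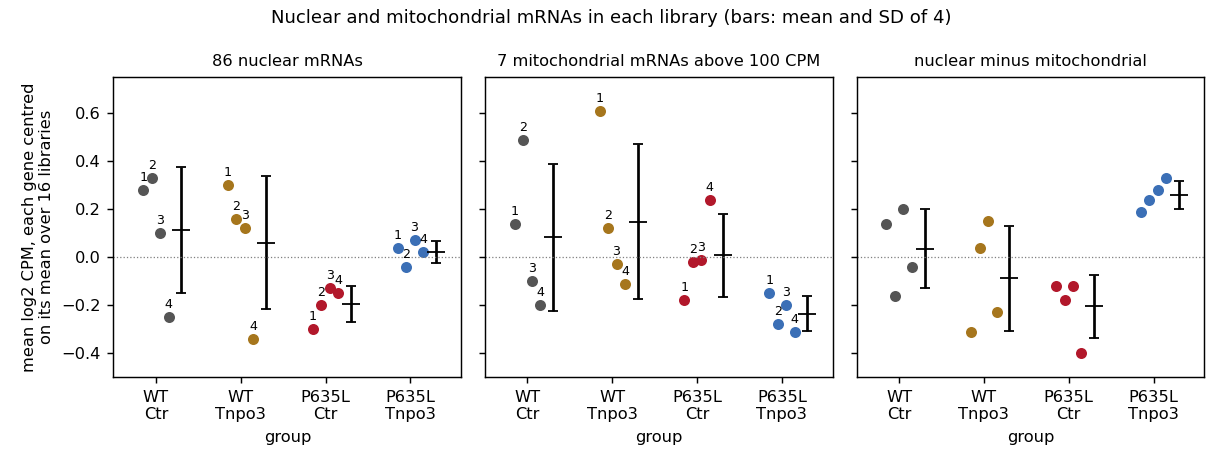
Mean log2 CPM of the 86 nuclear and of the 7 abundant mitochondrial mRNAs in each library, each gene centred on its mean over 16 libraries, and the difference of both, by group. Digits are replicate numbers, and bars give the mean and SD of 4 libraries. The difference lies at -0.40 to -0.12 in P635L Ctr and at 0.19 to 0.33 in P635L Tnpo3, and of the WT libraries only WT Ctr 3 (0.20) reaches the latter range.

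Cell type markers in the mutant groups moved with the virus as well. The cardiomyocyte markers summed to 56844 to 60676 CPM in P635L Ctr and 60948 to 71248 CPM in P635L Tnpo3, but 5 of the 9 had values below 0 (median -0.11) and only Myl3 rose (0.97). Of the 7 fibroblast markers 5 fell, and their sum was 1564 to 2368 CPM and 1092 to 1761 CPM. The 5 macrophage markers all had values above 0 (median 0.61, none called), and the skeletal muscle markers summed to 1496 to 2246 CPM and 1531 to 6367 CPM, with 1 of 3 tested falling. Mitochondrial rRNA held 0.889% to 1.36% of counts in P635L Ctr and 1.4% to 1.64% in P635L Tnpo3. The part of these in the subunit values was not tested.

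Ratios between isoforms within a library do not depend on the scaling. Cox7a1 to Cox7a2, the muscle isoform to the widely expressed one, was 1.82 to 2.18 in WT Ctr, 1.3 to 1.68 in P635L Ctr, 1.63 to 2.08 in P635L Tnpo3 and 1.73 to 2.21 in WT Tnpo3. P635L Ctr was thus below WT Ctr without overlap, but it overlapped P635L Tnpo3. Cox8b to Cox8a was 5.22 to 6.03 in WT Ctr, 3.72 to 4.65 in P635L Ctr and 5.16 to 5.31 in P635L Tnpo3, with P635L Ctr apart from both, but WT Tnpo3, at 4.38 to 5.91, overlapped P635L Ctr. Cox6a2 to Cox6a1 was 14.1 to 16.8 in WT Ctr and 12.2 to 13.9 in P635L Ctr, without overlap, but 13.6 to 15.5 in P635L Tnpo3 and 13 to 17.6 in WT Tnpo3, which both overlapped P635L Ctr. Cox4i2 to Cox4i1 (0.00408 to 0.00617 over all libraries), Ndufa4l2 to Ndufa4, Cox6b2 to Cox6b1 and the c-subunit ratios Atp5g1 to Atp5g3 and Atp5g2 to Atp5g3 overlapped between WT Ctr and P635L Ctr. Per length, Cox8b was 8.59 times as abundant as Cox8a and Cox7a1 3.24 times as abundant as Cox7a2 on average. Cox7b was at 582 to 858 CPM in WT Ctr and its testis isoform Cox7b2 at no more than 0.317 CPM in any library.

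In WT hearts the Tnpo3 virus gave no call among the members. None of the 99 passed the edgeR test, none had an unadjusted p under 0.05 and DESeq2 called none, against 0.00536%, 3.2% and 0.0214% of all genes. The nuclear median was -0.07 and the mitochondrial median 0.05. The smallest p-values belonged to Cox6b2 (log2 fold change 0.82), Ndufa11 (-0.21), Ndufv1 (-0.16) and Cox8b (-0.20), all with an edgeR adjusted p of 1. The interaction, which asks whether the virus acted differently in the 2 genotypes, called none of the 99 members with edgeR or DESeq2, against 0.504% of all genes with edgeR and 2.22% with DESeq2, and 14 members had an unadjusted p under 0.05, against 12.4% of all genes. Its nuclear median was 0.30. The smallest p-values were those of Cox7a1 (interaction 0.77, SE 0.24, edgeR adjusted p = 0.183), Ndufb2 (0.57, adjusted p = 0.216), Ndufb7 (0.56, adjusted p = 0.222) and Cox8b (0.62, adjusted p = 0.283). Without the 3 libraries rich in ENSMUSG00000119584, Ndufb2 and Ndufb7 passed, against 1.65% of all genes. A different response of the 2 genotypes was therefore not shown with all libraries.

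P635L Tnpo3 hearts were also compared with both WT groups, which share libraries with the comparisons above. Against WT Ctr, edgeR called none of the 99 members, against 3.07% of all genes, 8 had an unadjusted p under 0.05 (18.3% of all genes) and DESeq2 called 1, mt-Nd6 (6.08% of all genes). The nuclear median was -0.11 and all 13 mitochondrial mRNAs had values below 0, with a median of -0.30. mt-Nd6, encoded on the strand opposite to the other mitochondrial mRNAs, was at 2906, 4595, 1949 and 2666 CPM in WT Ctr and 2047, 1872, 1792 and 1642 CPM in P635L Tnpo3, or -0.72 as the log2 fold change (SE 0.20, edgeR adjusted p = 0.0535). Whether counting used strand is not given in the sources used here, so reads of mt-Nd6 and of antisense RNA cannot be told apart. The next smallest p-values were those of Sdha (-0.39), mt-Nd5 (-0.44) and Ndufv1 (-0.28). In the authors' deposited table for this pair, 3 of 101 members had an adjusted p under 0.05, mt-Nd6, Sdha and Atp5a1, all lower in P635L Tnpo3, against 4.75% of all genes listed. Against WT Tnpo3, edgeR called none, against 3.72% of all genes, 7 had an unadjusted p under 0.05 (20.1% of all genes) and DESeq2 called 1, again mt-Nd6 (7.81% of all genes). The nuclear median was -0.05 and the mitochondrial median -0.37, and the smallest p-values were those of mt-Nd6 (-0.57), Sdha (-0.43), Ndufs1 (-0.42) and mt-Cytb (-0.45). Without the 3 libraries rich in ENSMUSG00000119584, 10 members fell in that comparison, against 9.66% of all genes: Atp5a1, Ndufc2, Ndufs1, Sdha, Sdhc, Sdhd, Uqcrc2, mt-Cytb, mt-Nd2 and mt-Nd6.

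Splicing of the members was read from the authors' deposited rMATS tables, which compare each group with WT Ctr. They give an inclusion level, an estimate from junction reads of the share of the longer form. Events with 10 or more junction reads per library on average were read, and one counted as changed where the false discovery rate (FDR) was under 0.05 and inclusion differed by 0.1 or more. In P635L Ctr 1 of 366 member events had changed, against 2.52% of all events. It was an alternative 5′ splice site of Uqcrh, the hinge protein of complex III, in an exon on chromosome 4 (115927865 to 115927954, reverse strand) with a form longer by 69 bases. The longer form held 53.3%, 51%, 62.7% and 55.1% in WT Ctr and 70.4%, 70.4%, 73.3% and 64.8% in P635L Ctr, in listed order, without overlap (rMATS FDR = 0.000653). The normalised count of Uqcrh itself had a log2 fold change of -0.13 (SE 0.14). In P635L Tnpo3 2 of 416 member events had changed, against 2.12% of all events. Both were skips of 1 exon of Atp5h, chromosome 11, 115310018 to 115310119 (reverse strand, 102 bases), with different neighbouring exons. Inclusion was 3.3% to 11% in WT Ctr and 15.3% to 23.7% in P635L Tnpo3 in the first (rMATS FDR = 0.000259), and 12% to 20.6% and 34.2% to 40.3% in the second (rMATS FDR = 0.000342). They share reads of that exon. Under the same coordinates the Uqcrh event was listed for P635L Ctr only, and the Atp5h events for P635L Tnpo3 only. Their inclusion in the remaining groups was therefore not given, and whether it differed with the virus in P635L hearts cannot be read here. In WT Tnpo3 none of 383 member events had changed, against 0.941% of all events. The difference of these shares from the background was not tested.

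Promoters of the nuclear members were searched for motifs of 4 factors known for genes of respiration: NRF1 (GCGCATGCG), the estrogen-related receptors (ERR, TCAAGGTCA), GABP (ACTTCCGG) and YY1 (AAGATGGC), on both strands, in RefSeq windows (GRCm38.p6) from 250 bases before to 50 after a gene's start. A window was found for 68 of the 90 nuclear members and for 27025 genes in all. The share with a motif was 11.8% of members and 1.95% of genes for NRF1, 14.7% and 3.19% for YY1, 7.35% and 4.31% for GABP, and 2.94% and 0.466% for ERR. Among the 15 windows of members that fell in P635L Ctr, 1 held NRF1, 1 ERR, 1 GABP and 2 YY1, and among the 52 of other tested members 7, 1, 4 and 8. Windows of 3 members that fell are shown with their motif in capitals, and that of Cox7a1, which fell most, holds none of the 4. The NRF1 letters in Uqcrc1 overlap on both strands in 1 site at 31 and 32 bases after the start. The ERR letters in Atp5g3 begin 52 bases before the start, and the YY1 letters in Ndufb8 39 bases after it.
Uqcrc1, chr9:108936398-108936697, forward strand: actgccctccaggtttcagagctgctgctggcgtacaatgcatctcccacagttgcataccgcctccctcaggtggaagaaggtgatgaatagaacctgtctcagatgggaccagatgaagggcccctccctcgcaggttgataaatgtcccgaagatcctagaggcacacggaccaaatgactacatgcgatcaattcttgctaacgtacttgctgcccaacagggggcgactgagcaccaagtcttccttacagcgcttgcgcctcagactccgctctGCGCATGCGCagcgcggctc
Atp5g3, chr2:73911277-73911576, reverse strand: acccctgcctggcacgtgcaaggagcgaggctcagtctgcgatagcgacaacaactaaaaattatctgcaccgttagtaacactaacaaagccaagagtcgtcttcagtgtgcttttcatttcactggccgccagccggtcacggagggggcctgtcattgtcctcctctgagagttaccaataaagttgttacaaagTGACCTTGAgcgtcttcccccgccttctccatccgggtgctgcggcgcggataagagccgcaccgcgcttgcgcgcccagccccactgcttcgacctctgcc
Ndufb8, chr19:44555393-44555692, reverse strand: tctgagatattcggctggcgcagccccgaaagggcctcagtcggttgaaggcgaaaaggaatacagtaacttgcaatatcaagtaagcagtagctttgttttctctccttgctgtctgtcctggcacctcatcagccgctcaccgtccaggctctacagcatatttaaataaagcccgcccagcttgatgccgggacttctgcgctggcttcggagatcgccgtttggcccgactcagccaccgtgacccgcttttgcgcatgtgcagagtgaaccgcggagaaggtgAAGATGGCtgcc
Cox7a1, chr7:30183921-30184220, forward strand: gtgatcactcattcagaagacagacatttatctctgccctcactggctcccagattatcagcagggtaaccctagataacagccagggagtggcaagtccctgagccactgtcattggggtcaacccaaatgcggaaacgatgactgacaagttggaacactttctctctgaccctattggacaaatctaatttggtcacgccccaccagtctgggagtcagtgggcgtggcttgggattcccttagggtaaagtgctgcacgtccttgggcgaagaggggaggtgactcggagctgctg

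Genes that work beside the subunits were read from lists set by function, against 7.14% of all genes called lower and 7.07% higher in P635L Ctr. In P635L Ctr against WT Ctr, 1 of 14 complex I assembly factors fell (Ecsit, -0.33) and 3 of 31 factors for complexes II to V fell: Cox10 (-0.66), which makes heme for complex IV, Cox18 (-0.77), an insertase of the inner membrane, and Coa7 (-0.41). Of 26 genes of mitochondrial DNA expression 2 fell, Mterf2 (-0.64) and Hsd17b10 (-0.81), and 1 rose, Mterf3 (0.50). None of 12 regulators of mitochondrial biogenesis was called, and 11 had values below 0. Ppargc1a, a coactivator of respiratory genes, had -0.08 and Esrra, an estrogen-related receptor, -0.37 (edgeR adjusted p = 0.182). Of 15 carriers and partners 2 fell: Ckm, the muscle creatine kinase (-1.03, edgeR adjusted p = 0.00102), and Slc25a4, the heart ADP/ATP carrier (-0.49, edgeR adjusted p = 0.021). Of 14 genes of the tricarboxylic acid cycle 2 fell, Idh2 (-0.51) and Dlst (-0.37), of 77 mitochondrial ribosomal proteins 8 fell and 1 rose (Mrpl33, 0.54), and of 13 genes of coenzyme Q synthesis 3 fell and 1 rose (Coq2, 0.40). The median log2 fold changes of these lists lay between -0.31 and -0.08, nearer 0 than that of the nuclear subunits, a difference that was not tested.

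The list of mitochondrial stress response genes had the opposite sign. Of its 16 genes 6 rose in P635L Ctr and none fell, with a median of 0.63. Mthfd2, a mitochondrial enzyme of one-carbon metabolism, was at 1.97 to 6.69 CPM in WT Ctr and 16.1 to 36 CPM in P635L Ctr (log2 fold change 2.88, edgeR adjusted p = 0.00034), and Atf5, a transcription factor, at 72.4 to 112 CPM and 294 to 383 CPM. With the Tnpo3 virus in P635L hearts 4 of the 16 fell, against 2.25% of all genes called lower. They were Mthfd2 (-1.83), Atf5 (-1.30), Atf4 (-0.52) and Lonp1 (-0.49), a protease of the mitochondrial matrix. Both comparisons use the same P635L Ctr libraries, so the rise and the fall are not independent. None of the other lists had a call with the virus in P635L hearts.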

How the data were processed

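The authors deposited a table of whole-number read counts per gene for 16 left-ventricle libraries. Reads were handled with STAR 2.7.9a and featureCounts 2.0.6 on GRCm39, per the submitters' processing notes. Whether counting used strand, and how reads with several matches were treated, is not given in the sources used here. The log2 fold changes and p-values of the authors' DESeq2 tables, and the inclusion difference score and FDR of their rMATS tables, were used as deposited, per the file headers. Symbols came from the splicing tables (11276 genes) and a gene name table (40786), and 4891 genes had none.

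Counts were fitted with edgeR 4.0.16 in R 4.3.3 (TMM factors, filterByExpr, quasi-likelihood F test with robust estimation) over all 16 libraries and 4 groups, with 12 residual degrees of freedom. P-values were adjusted by Benjamini-Hochberg over 18662 genes, and a gene was called at an adjusted p under 0.05. CPM values used the TMM factors. DESeq2 1.42.0, upper-quartile and median-of-ratios scaling, a scaling without mitochondrial genes, no filter, the replicate block, a fold minimum and fits without libraries were alternatives. In simulated counts of 18227 genes for P635L Ctr against WT Ctr, 199 were changed. Of these, 45.4% of 2-fold and 76.5% of 4-fold changes were called, and 3.17% of calls were false. In the data 2653 of 18662 genes were called, and every called member changed by less than 2-fold (lowest log2 fold change -0.88). The simulated rates therefore do not give the share of such changes that would be called. Nuclear copies were searched with BLAST 2.17.0. The labels name separate samples but not litters or days. The precision of each value is set by 28493249 to 85922669 counts per library and by 4 mice per group.

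Members and lists were chosen with earlier results of these data known. The genes named are, in each comparison, all members called where 12 or fewer, otherwise the 6 with the largest change in each direction. Where none was called, they are the 4 with the smallest p. The mitochondrial mRNAs, isoform pairs, 1 or more preset nuclear subunits per complex and members with a changed splicing event are named as well. Others, among them Uqcrc2, Uqcrh levels, Sdhb, Atp5g2, Cox6c and the remaining called members, were named after their values were seen.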

Additional observations from a re-analysis of the deposited data

Results flagged for a closer look

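In 7 of 200 groups of 4 libraries checked (the named members, and measures of whole libraries), 1 library stood apart from the other 3 by more than Dixon's 95% critical value of 0.829 for the gap over the range, and chance flags about 1 in 20 groups. Cox7a1 was at 763 CPM in P635L Tnpo3 4 and at 851 to 853 CPM in the others of its group, so that this library lay nearest to P635L Ctr. Atp5h was at 959 CPM in P635L Ctr 1 and 1068 to 1084 CPM in the others. In P635L Tnpo3 3, Atp5g3 was at 2189 CPM (others 2029 to 2049) and Cox5a at 787 CPM (others 740 to 746). The low-count mt-Co2 was at 41.3 CPM in P635L Tnpo3 1 (others 26.7 to 28.4), and Cox6b2 at 4.39 CPM in WT Tnpo3 2 (others 1.88 to 2.28). Nuclear members held 4.54% of the counts of WT Tnpo3 4 and 7.39% to 7.74% in the rest of its group. In WT Tnpo3 4, ENSMUSG00000119584 held 22.7% of the counts.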

How the results depend on the processing

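No named value changed direction while called: of the named values under the alternatives, 5769 kept their side of the threshold, 83 crossed into it, 82 fell out of it and 0 reversed. The counts of members called moved more. For P635L Ctr against WT Ctr (18) they were 9 with a log2 fold change of at least 0.5 in addition (11.6% of all genes), 9 with no filter on low counts (more genes tested), 42 without the libraries rich in ENSMUSG00000119584, 62 without those with Xist above the Y-linked genes, and 1 to 43 leaving out 1 library at a time. For P635L Tnpo3 against P635L Ctr (2) they were 1 with the fold minimum (3.32% of all genes), 1 with no filter, 5 with upper-quartile factors, 6 with DESeq2, 39 with only the groups compared, 24 and 24 without the same 2 sets of libraries, and 0 to 5 leaving out 1 library. For P635L Tnpo3 against WT Ctr (0) they were 1 with no filter, 1 with DESeq2 and 0 to 1 leaving out 1 library. Against WT Tnpo3 (0) they were 10 without the libraries rich in ENSMUSG00000119584, 1 with DESeq2 and 0 to 5 leaving out 1 library. For the interaction (0) it was 2 without the libraries rich in ENSMUSG00000119584. The cause of these differences was not tested. The median log2 fold changes over nuclear and over mitochondrial members moved by less than 1 SD between replicates under every alternative, but a median near 0 could move far in proportion. Leaving out 1 library, the mitochondrial median ran from -0.46 to -0.03 for P635L Ctr against WT Ctr, -0.24 to -0.02 (without P635L Ctr 4) for the virus in P635L and -0.15 (without WT Tnpo3 1) to 0.23 (without WT Ctr 2) for the virus in WT. The nuclear median ran from -0.18 (without WT Ctr 4) to 0.04 (without WT Ctr 2) for the virus in WT, and for P635L Tnpo3 from -0.22 (without WT Ctr 4) to -0.01 (without WT Ctr 2) against WT Ctr and -0.16 (without WT Tnpo3 4) to 0.02 (without WT Tnpo3 1) against WT Tnpo3. The 3 splicing events changed also at an FDR under 0.01 and at 20 or more junction reads.

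What the replicate numbers stand for is not given. The deviations of same-numbered libraries from their group means correlated at -0.257 to 0.552. Between WT Ctr and WT Tnpo3 they correlated at 0.0964 to 0.552, against -0.326 to 0.208 for different numbers, and between the other groups they had both signs. The main fit did not read the numbers as pairing mice, and whether they do was not tested. With the replicate block, 15 members were called in P635L Ctr against WT Ctr (13.3% of all genes) and 1 in P635L Tnpo3 against P635L Ctr (3.63%). Low-count members (Cox6b2, Ndufs6b, mt-Atp8) and members with close copies (Ndufb4c, Cox6c2) limit what these counts resolve.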
